A study of Mus musculus with 40 samples.

Results

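Perineuronal nets are lattices of extracellular matrix that wrap the cell body and proximal dendrites of certain neurons, above all the fast-spiking interneurons that contain parvalbumin. Hyaluronan chains made at the cell surface form the backbone, the chondroitin sulphate proteoglycans of the lectican family bind it through their N-terminal domain, link proteins hold that bond, and tenascin-R ties the other ends of the lecticans together. In the rodent prefrontal cortex these nets are known to assemble through adolescence, and the same molecules also occur in the loose matrix around other cells. The set described here consists of 10 genes of this matrix, named by symbol and found by their Ensembl gene identifier: the 4 lecticans Acan, Bcan, Ncan and Vcan, the link proteins Hapln1 and Hapln4, the tenascin Tnr, the hyaluronan synthase Has3, and the membrane proteoglycans Cspg5 and Ptprz1. All 10 were among the 56980 genes of the count table, and all 10 passed the filter on low counts that left 17880 genes for testing.

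The study measured polyadenylated RNA of the medial prefrontal cortex in wild-type female C57BL/6J mice, an inbred laboratory strain, in 40 libraries. There were 8 groups of 5 libraries: adults or adolescents, which entered at postnatal day 55 or 25, each with oral antibiotics or plain water to drink, and each with subcutaneous morphine (15 mg/kg) or saline over 5 days. At both ages the groups were thus antibiotics with morphine, water with morphine, antibiotics with saline and water with saline. The labels give the tissue as brain and name no antibiotic, and only the title gives the region. Whether each library of a group stands for a mouse of its own is not stated, and a p-value here therefore reflects the spread among these libraries, which may be technical. The totals lay between 8.64 and 12.1 M counts (M for mega). Levels are given in CPM, the count relative to the library's total, scaled by TMM. Before that scaling, 3 counts in 1 library stood for 0.248 to 0.347 CPM, a limit that covers counting error only. Slc17a7 of excitatory neurons had at least 1500 CPM in every library, and Ttr of choroid plexus had at most 0.868 CPM. Pvalb, the marker that defines the parvalbumin cells, was read at 13.9 to 34.7 CPM.

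Per length of annotated exon, the abundance of the 10 genes spanned a wide range, and the most familiar marker of the nets was the least abundant. Bcan, which encodes brevican, a lectican found only in the nervous system, had the highest level with 60.5 ± 6.81 CPM per kb (SD, n = 40 libraries). Ncan, encoding neurocan, another lectican of nervous tissue, followed with 46.4 ± 4.18 CPM per kb, and Cspg5, encoding the transmembrane proteoglycan neuroglycan C, with 35.5 ± 2.26 CPM per kb. Hapln4, a link protein of the brain, had 31.3 ± 3.54 CPM per kb.
Tnr, which encodes tenascin-R, had 21.3 ± 2.11 CPM per kb and Ptprz1, a receptor tyrosine phosphatase whose secreted form is the proteoglycan phosphacan, had 15.0 ± 2.06 CPM per kb. A wide step separated these genes from the rest, which lay at or below 5.06 CPM per kb in every library. Hapln1, the other link protein, had 3.75 ± 0.612 CPM per kb, the synthase Has3 had 3.03 ± 0.339 CPM per kb, and Vcan, encoding versican, a lectican known from oligodendrocyte precursors and nodes of Ranvier, had 1.49 ± 0.222 CPM per kb. Acan, which encodes aggrecan, the lectican most used to mark the nets, had 0.368 ± 0.0783 CPM per kb, from 15 to 45 counts a library. At every place in this order the step between neighbours was larger than the larger of their SDs.

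**Figure D1:**
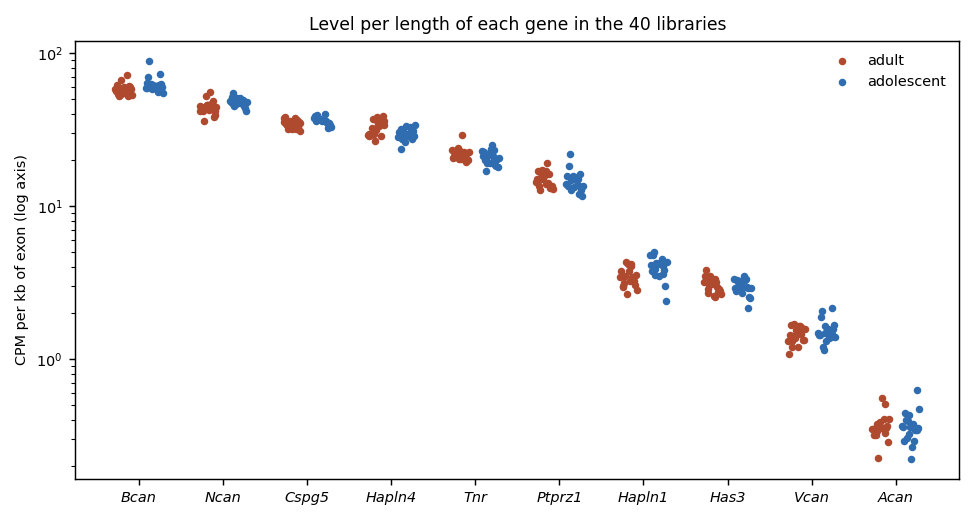
Level of each gene in CPM per kb of annotated exon (log axis) in the adult libraries (red, left of each pair, n = 20) and the adolescent libraries (blue, n = 20), each point a library. Genes run in the order of their median, with Bcan near 60.5 and Acan near 0.368 CPM per kb.

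Within the lectican family the shares were almost the same at both ages. Of the summed lectican level per kb, Bcan made up 55.6% ± 2.65 in adults and 55.5% ± 2.34 in adolescents (SD, n = 20 libraries each). Ncan made up 42.6% ± 2.62 in adults and 42.8% ± 2.43 in adolescents, Vcan 1.39% ± 0.161 in adults and 1.36% ± 0.167 in adolescents, and Acan 0.356% ± 0.0776 in adults and 0.326% ± 0.0706 in adolescents. These shares rest on the annotated exon lengths, which need not be the transcripts present in this tissue.

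Across the 8 groups each gene kept to a narrow band. The mean of the highest group was 1.13 times that of the lowest for Cspg5 and 1.46 times for Acan, and the other 8 genes lay between these. When the 8 group means of a gene were put in order, no step between neighbouring groups exceeded the larger SD of the pair, in any of the 10 genes. Over all 40 libraries the coefficient of variation ran from 6.36% for Cspg5 to 21.2% for Acan, with 16.3% for Hapln1 and 9.01% for Ncan.

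**Figure D2:**
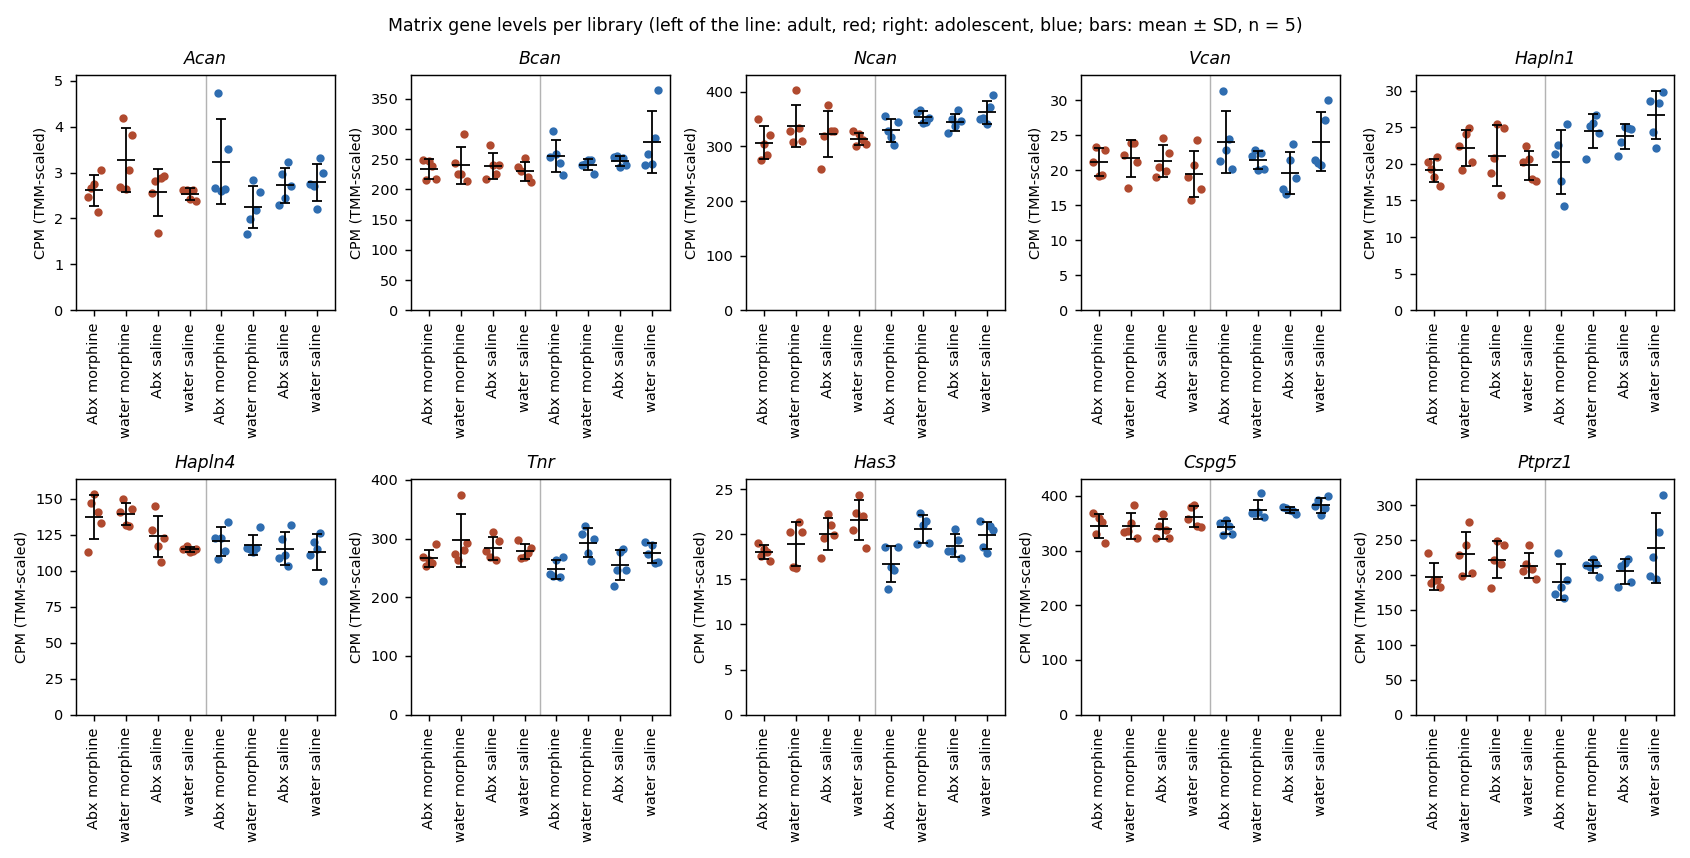
CPM of each gene in every library, adult groups left of the grey line in red and adolescent groups right of it in blue, with the mean and SD of the 5 libraries of a group. Hapln1 and Ncan tend to sit lower and Hapln4 higher in the adult groups, with wide overlap between libraries.

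The region before the start of 4 of these genes is shown because the results below turn on them: Bcan, Ncan and Hapln1 were lower in adults, and Tnr was lower with antibiotics. The windows run from 250 bases before the start to 50 bases after it, were taken from RefSeq on GRCm38.p6, and are written 5′ to 3′ on the strand of the gene (chr3:88000307-88000606 on the minus strand for Bcan, chr8:70120795-70121094 on the minus strand for Ncan, chr13:89540386-89540685 on the plus strand for Hapln1 and chr1:159523519-159523818 on the plus strand for Tnr). Capitals mark matches, on either strand, to 7 short motifs: a TATA box (TATAAA), a GC box (GGGCGG), an E-box (CACGTG), a cAMP response element (TGACGTCA), an AP-1 site (TGANTCA), a SOX core (ACAATG) and a CCAAT box (CCAAT).
Bcan: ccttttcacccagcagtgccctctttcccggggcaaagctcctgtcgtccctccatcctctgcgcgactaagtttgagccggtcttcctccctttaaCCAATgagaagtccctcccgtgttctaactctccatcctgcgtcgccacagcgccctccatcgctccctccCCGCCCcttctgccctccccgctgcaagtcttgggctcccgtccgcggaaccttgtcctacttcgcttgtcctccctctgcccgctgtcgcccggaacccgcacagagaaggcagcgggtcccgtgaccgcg
Ncan: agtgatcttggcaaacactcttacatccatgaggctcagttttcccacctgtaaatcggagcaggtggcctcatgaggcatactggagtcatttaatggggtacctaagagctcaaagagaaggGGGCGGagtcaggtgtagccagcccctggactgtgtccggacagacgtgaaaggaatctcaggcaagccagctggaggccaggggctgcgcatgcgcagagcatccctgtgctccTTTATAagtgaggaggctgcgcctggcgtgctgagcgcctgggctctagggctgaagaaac
Hapln1: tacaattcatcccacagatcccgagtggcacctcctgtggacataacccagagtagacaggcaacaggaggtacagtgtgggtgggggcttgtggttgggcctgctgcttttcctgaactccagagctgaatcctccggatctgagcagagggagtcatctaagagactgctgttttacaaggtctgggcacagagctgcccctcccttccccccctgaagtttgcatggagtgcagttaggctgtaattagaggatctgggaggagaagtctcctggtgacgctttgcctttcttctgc
Tnr: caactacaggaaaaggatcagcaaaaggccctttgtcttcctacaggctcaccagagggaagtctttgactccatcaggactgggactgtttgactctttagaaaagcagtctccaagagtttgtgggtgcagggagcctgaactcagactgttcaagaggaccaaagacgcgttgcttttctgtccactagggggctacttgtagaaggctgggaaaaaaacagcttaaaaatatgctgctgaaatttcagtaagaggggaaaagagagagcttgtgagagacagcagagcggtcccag

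The Bcan window held matches to the GC box and the CCAAT box, and the Ncan window to the TATA box and the GC box, with no overlap between matches. The TATA match of Ncan lies on the strand opposite to the gene, at base 240 of the window, and is a match of letters only. None of the 7 motifs was found in the windows of Hapln1 and Tnr, which says only that these letters are not in these windows. Of all 32851 windows of this length in the table, 35.7% held the GC box, 37.4% the CCAAT box, 13.6% the TATA box, 12.6% the SOX core, 7.8% the AP-1 site, 7.2% the E-box and 1.8% the cAMP response element, so the matches of Bcan and Ncan are of common kinds. The windows also differed in base composition: the GC content was 64.0% for Bcan, 56.7% for Ncan, 54.3% for Hapln1 and 48.0% for Tnr, against a median of 52.7% over all windows. Of the 10 genes, 7 had a window in the table, and Hapln4, Has3 and Cspg5 are named only.

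In the genome the lecticans and the link proteins lie side by side: with no protein-coding gene between them, Bcan neighbours Hapln2 on chromosome 3, Ncan neighbours Hapln4 on chromosome 8, Acan neighbours Hapln3 on chromosome 7 and Vcan neighbours Hapln1 on chromosome 13. Hapln2 and Hapln3 are the link proteins outside the set.

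The first question was whether the matrix genes differ between adult and adolescent cortex. Pooled over the 4 treatments, 4 genes were lower in adults (Hapln1, Ncan, Bcan and Cspg5) and 1 was higher (Hapln4), in each case by less than the range among libraries of the same age. These 5 of 10 were called, that is, had an edgeR quasi-likelihood p under 0.05 after Benjamini-Hochberg adjustment over all 17880 genes, where 17.9% of all genes were called (9.28% higher and 8.57% lower in adults). The remaining 5 genes did not pass; with Tnr (0.0433) there were 6 at an unadjusted p under 0.05, a level that 30.3% of all genes reached. DESeq2 and limma-voom also called 5 each, and the 17.9% is the share with edgeR. The median log2 fold change of the 10 genes was -0.04, against 0.01 for all genes tested.

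Hapln1, which stabilises the bond of lecticans to hyaluronan and without which mice form poor nets, had the largest age difference of the set. It ranged from 15.7 to 25.5 CPM with a median of 20.2 CPM in the 20 adult libraries, and from 14.2 to 29.8 CPM with a median of 24.6 CPM in the 20 adolescent libraries. The lowest library of all was an adolescent one, so the groups overlap over most of their range while their medians stand apart. The log2 fold change, adult over adolescent, was -0.21 ± 0.06 (SE), with an adjusted p of 0.00802.
Ncan ranged from 259 to 404 CPM with a median of 321 CPM in adults, and from 302 to 395 CPM with a median of 348 CPM in adolescents. Both the lowest and the highest library were adult, so the spread was wider there. Its log2 fold change was -0.12 ± 0.03, with an adjusted p of 0.0108.

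Bcan was lower by a like amount, with a call that held in fewer of the fits. It ranged from 212 to 292 CPM with a median of 233 CPM in adults, and from 224 to 364 CPM with a median of 249 CPM in adolescents, with a log2 fold change of -0.12 ± 0.04 and an adjusted p of 0.0448. The call was lost when any of 21 of the 40 libraries was left out in turn (adjusted p up to 0.0739, without replicate 2 of the adolescents given antibiotics and morphine), with the replicate block (0.0644) and with surrogate variables (0.052). Cspg5 ranged from 313 to 384 CPM with a median of 345 CPM in adults, and from 329 to 406 CPM with a median of 369 CPM in adolescents, the smallest difference among the called genes. Its log2 fold change was -0.08 ± 0.03 with an adjusted p of 0.0197, and the call was lost with surrogate variables (log2 fold change -0.05, adjusted p 0.197).

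Hapln4, the link protein known to hold brevican at inhibitory synapses on the cell body, went the other way. It ranged from 106 to 153 CPM with a median of 129 CPM in adults, and from 92.6 to 134 CPM with a median of 116 CPM in adolescents. Adult libraries reached higher and adolescent libraries reached lower, with a shared middle. The log2 fold change was 0.14 ± 0.04, with an adjusted p of 0.0064. Hapln4 and its genomic neighbour Ncan therefore had age differences of opposite sign.

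The balance of the link proteins can be read as the CPM of Hapln4 over that of Hapln1 in each library, which is not corrected for length and serves only to compare libraries. It ranged from 4.59 to 8.40 with a median of 6.43 in adults, and from 3.10 to 8.02 with a median of 5.05 in adolescents. Among the 8 groups its mean was highest in adults with antibiotics and morphine (7.25 ± 1.1, SD, n = 5) and lowest in adolescents with water and saline (4.31 ± 0.838). The adolescents given antibiotics and morphine (6.14 ± 1.32) lay above the adults with water and saline (5.85 ± 0.548). Since both genes were already called with age, the ratio is a description and carries no test.

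**Figure D3:**
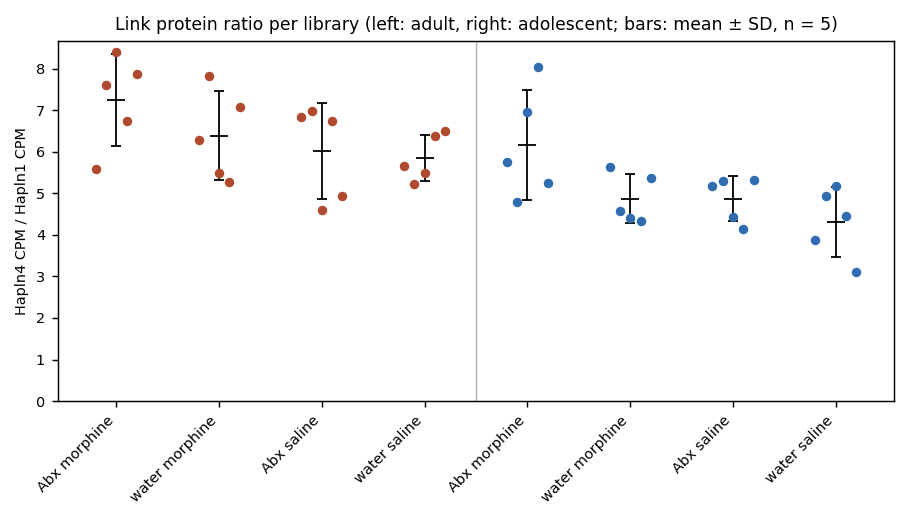
Ratio of Hapln4 CPM to Hapln1 CPM in every library, adult groups left of the grey line in red and adolescent groups right of it in blue, with the mean and SD of 5 libraries. The medians are 6.43 in adults and 5.05 in adolescents, and single libraries of both ages overlap.

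Within each treatment, taken alone, edgeR called 0 of the 10 genes with age. The number of genes with an unadjusted p under 0.05 was 4 with water and saline (10% of all genes), 2 with antibiotics and saline (20.2%), 3 with water and morphine (14.3%) and 1 with antibiotics and morphine (14.8%). In the same order the share of all genes called by edgeR was 0.257%, 5.97%, 0.928% and 1.04%. DESeq2 called 1, 1, 0 and 0 of the 10 genes, and limma-voom called 0, 1, 1 and 0. The Hapln1 estimates were below 0 under all 4 treatments, with log2 fold changes of -0.43, -0.17, -0.14 and -0.09 in that order. Those of Ncan were also below 0 under all 4 (-0.21, -0.10, -0.07 and -0.10), and those of Hapln4 above 0 under all 4 (0.02, 0.10, 0.24 and 0.19). The Bcan estimates were below 0 under all 4, with the largest under water and saline (-0.27, -0.05, -0.01 and -0.13), and those of Cspg5 were below 0 under the first 3 treatments (-0.08, -0.14, -0.12 and 0.01). Under water and saline the Bcan estimate was -0.16 (adjusted p 0.586) without replicate 5 of the adolescents, the highest library at 364 CPM.

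With water and saline, Hapln1 had 20.3, 22.4, 20.6, 17.9 and 17.7 CPM in adults and 28.6, 24.3, 22.2, 28.3 and 29.8 CPM in adolescents, in the order of replicate number. All adolescent libraries but the lowest were above all adult ones. Its adjusted p was 0.101 with edgeR, 0.0491 with DESeq2, 0.00976 with no filter on low counts and 0.033 without replicate 3 of the adolescents, the lowest library of that group. Ncan in the same groups had 328, 301, 323, 312 and 304 CPM in adults and 351, 353, 342, 373 and 395 CPM in adolescents, with no overlap and an adjusted p of 0.224. It was 1 gene of 10 without overlap in that comparison, where 1.95% of all genes had none. With water and morphine the 1 gene of 10 without overlap was Hapln4, with 141, 150, 132, 131 and 143 CPM in adults and 116, 115, 113, 116 and 130 CPM in adolescents (3.61% of all genes had no overlap). The lowest adult library stood just above the highest adolescent one, and the adjusted p was 0.105.

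Markers of several cell types moved with age in the same libraries, where 17.9% of all genes were called. Among markers of oligodendrocyte precursors, cells known to make versican and Ptprz1, 7 of 13 were lower in adults and none was higher. Their summed level ranged from 301 to 455 CPM with a median of 337 CPM in adults, and from 354 to 536 CPM with a median of 397 CPM in adolescents. Among markers of mature oligodendrocytes 9 of 12 were lower in adults, with sums from 853 to 1640 CPM (median 1210) in adults and from 1210 to 2280 CPM (median 1530) in adolescents.
Of 15 astrocyte markers 0 were called with age by edgeR, with 2 at an unadjusted p under 0.05, a level that 30.3% of all genes reached. Their sum ranged from 4200 to 6130 CPM (median 4760) in adults and from 4100 to 6750 CPM (median 4890) in adolescents. Of 15 markers of parvalbumin interneurons 2 were higher and 1 was lower in adults, with sums from 1380 to 1720 CPM (median 1620) in adults and from 1400 to 1820 CPM (median 1560) in adolescents. Here and below this sum is weighted towards abundant markers such as Gad1 and Gad2. Over all libraries their medians were 268 and 162 CPM, against 22.5 CPM for Pvalb, so the sum says little about Pvalb itself. Of 10 markers of other interneurons 3 were lower in adults (Npy, -0.40, Sst, -0.30, and Cck, -0.12) and 2 were higher (Reln, 0.15, and Vip, 0.13), with sums from 1070 to 1350 CPM (median 1240) in adults and from 1180 to 1430 CPM (median 1340) in adolescents. No marker of these 5 lists was at 0 in any library. Calls were also made among markers of excitatory neurons (2 of 13 higher, 1 lower), of striatal neurons (1 of 9 higher, 3 lower), of endothelium (2 of 10 lower), and of microglia (1 of 10 lower) and mural cells with fibroblasts (1 of 12 lower). The part of these shifts in the age differences of the matrix genes was not tested, and in RNA of whole tissue fewer cells of a type and less RNA per cell cannot be told apart.

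Other genes of the same matrix, in 6 lists, showed calls in both directions with age, as did all genes tested (17.9% called, 9.28% higher and 8.57% lower in adults). Among 28 tested receptors and ligands of the nets 4 were higher and 2 lower in adults, 21.4% of the list. The neuronal pentraxin Nptx1 was higher (408 ± 38.3 CPM in adults and 358 ± 39.2 CPM in adolescents, SD, n = 20 each) while its relative Nptx2 was lower (61.0 ± 12 CPM in adults and 71.4 ± 15.6 CPM in adolescents), and the semaphorin receptor Plxna4 (log2 fold change 0.18) and the cell adhesion molecule Cntn4 (0.21) were higher. Among 24 proteases and inhibitors 2 were higher and 4 lower: the membrane-bound metalloproteases Mmp24 (-0.21) and Mmp15 (-0.23) and the plasminogen activator Plat (-0.18) were lower, and the large secreted protein Reln (0.15) was higher.
Among 34 other proteoglycans and matrix proteins 2 were higher and 3 lower, with Sparc, a secreted matrix-binding protein, at 129 ± 17.2 CPM in adults and 170 ± 23.1 CPM in adolescents. The syndecans, which carry heparan sulphate on the cell surface, were split: Sdc1 (-0.57) and Sdc3 (-0.08) were lower and Sdc2 (0.15) was higher. In 21 genes of chondroitin sulphate synthesis and sulphation only the linker enzyme B3gat3 was called (-0.13), in 10 of hyaluronan turnover only Cemip (-0.15), which takes part in hyaluronan breakdown, and in 4 other link proteins and tenascins only Tnxb (0.34). The median log2 fold changes of these lists lay between -0.05 and 0.03, against 0.01 for all genes.

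The next question was whether antibiotics alter the matrix genes, and the comparison with the most calls among treatments was that of adolescents given morphine. Tnr and Has3 were lower with antibiotics than with water, and none of the 10 genes was called higher. The count of 2 of 10 stands beside 7.56% of all genes called by edgeR (1351 genes, 3.54% higher and 4.02% lower). DESeq2 called 2 of the 10 genes. Limma-voom called 3, but it also called more genes over all than edgeR did. At an unadjusted p under 0.05 there were 5 of the 10 and 23% of all genes. The median log2 fold change of the 10 was -0.12, against -0.01 for all genes. The libraries of this comparison were uneven: replicate 5 of the antibiotics-morphine group stood apart from the other 4, and without it 2263 genes were called. Without replicate 2 or 3 of the same group 634 and 729 genes were called, and without replicate 2 of the water-morphine group 896.

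Tnr had 239, 236, 263, 234 and 268 CPM with antibiotics and morphine, and 307, 322, 276, 261 and 300 CPM with water and morphine, in the order of replicate number. The groups overlap through 1 low library on water, with the rest on water above all libraries on antibiotics. The log2 fold change was -0.24 ± 0.07 (SE, n = 5 each), a fold of 0.846, with an adjusted p of 0.0258. It was called under all 8 alternative settings (adjusted p from 0.00273 to 0.0494) and lost when replicate 1, 2 or 5 of the water-morphine group or replicate 1, 2 or 4 of the antibiotics-morphine group was left out (adjusted p up to 0.104). A gene on the opposite strand, Gm38039, shares 443 bases with Tnr. Its count was at most 224 and that of Tnr at least 2189. The strand setting of the counts is not known, and the effect of this overlap on Tnr was not tested.

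Has3, a hyaluronan synthase of the plasma membrane, had 18.6, 13.9, 16.4, 16.1 and 18.6 CPM with antibiotics and morphine, and 18.9, 22.4, 21, 21.5 and 19.0 CPM with water and morphine. The groups did not overlap, with a narrow gap between them. This was a log2 fold change of -0.30 ± 0.09, a fold of 0.812, with an adjusted p of 0.0337. That call was lost with no filter on low counts (0.0888), with only the compared groups in the fit (0.0662) and with surrogate variables (log2 fold change -0.18, adjusted p 0.453), and also without replicate 2, 3 or 4 of either group (adjusted p up to 0.17). Chtf8 on the opposite strand shares 352 bases with Has3 and had at most 11 counts.

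Of the 10 genes 2 had no overlap between these groups, Has3 and Cspg5, where 5.92% of all genes had none. Cspg5 had 351, 329, 356, 345 and 330 CPM with antibiotics and morphine, and 369, 368, 370, 406 and 362 CPM with water and morphine, with a log2 fold change of -0.13 ± 0.05 and an adjusted p of 0.109. The lowest library on water lay just above the highest on antibiotics. Hapln1 had 21.4, 22.5, 17.7, 14.2 and 25.5 CPM with antibiotics and morphine, and 20.6, 25.1, 25.6, 26.7 and 24.2 CPM with water and morphine, a log2 fold change of -0.27 ± 0.11 with an adjusted p of 0.136. Replicate 5 was the highest of the antibiotics group and replicate 4 the lowest. Without replicate 5 the log2 fold change was -0.36 (adjusted p 0.0347), and without replicate 4 it was -0.15 (0.478). Limma-voom, which weights libraries by quality, gave an adjusted p of 0.0167, and the other 7 settings gave 0.117 to 0.567, the last with surrogate variables (log2 fold change -0.16).

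Acan was the 1 gene of the set whose estimate was large and positive in this comparison. It had 2.67, 4.74, 2.59, 2.64 and 3.52 CPM with antibiotics and morphine, and 1.67, 1.99, 2.84, 2.19 and 2.58 CPM with water and morphine. Replicate 2 on antibiotics was the highest of all 40 libraries, and the groups overlap in the middle of the range. The log2 fold change was 0.53 ± 0.2 with an adjusted p of 0.0966, from few counts, so the gene was not called. The remaining genes had log2 fold changes of 0.16 for Vcan, 0.08 for Bcan, 0.03 for Hapln4, -0.10 for Ncan and -0.17 for Ptprz1, with adjusted p of 0.369 or more.

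**Figure D4:**
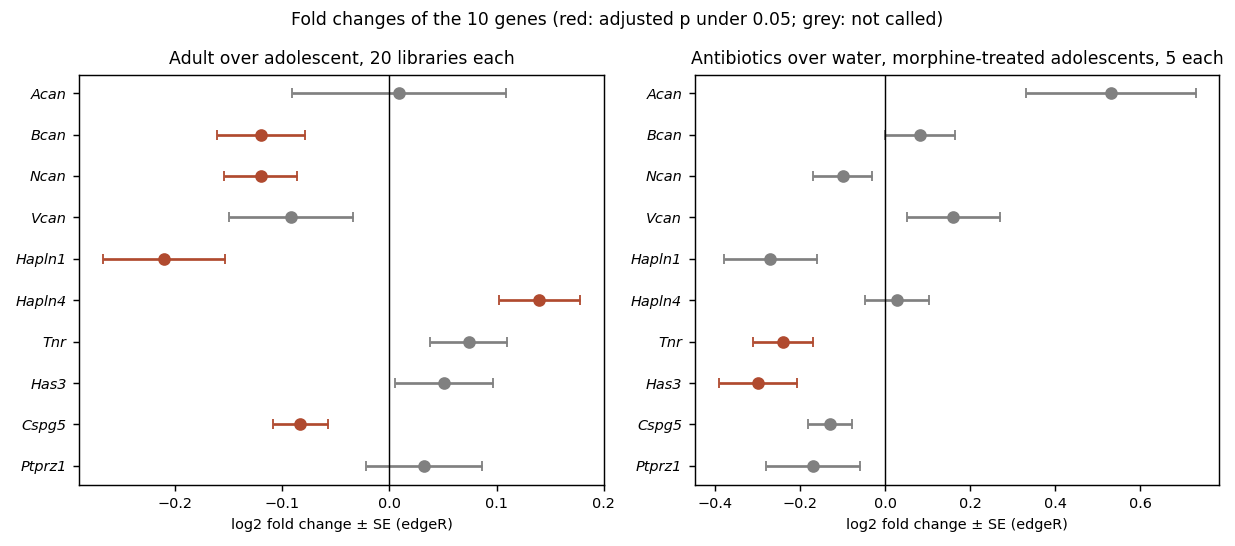
log2 fold change with its SE for each gene, adult over adolescent (left, 20 libraries each) and antibiotics over water in adolescents given morphine (right, 5 libraries each), with called genes in red and the others in grey. On the left 4 called genes lie below 0 and Hapln4 above, and on the right Tnr and Has3 are called below 0 while Acan has the largest estimate and the widest SE.

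In the same comparison, where 7.56% of all genes were called, 2 of 15 astrocyte markers and 1 of 13 precursor markers were lower. Of 12 mature oligodendrocyte markers edgeR called 0 with 2 at an unadjusted p under 0.05, a level that 23% of all genes reached. The astrocyte sum ranged from 4100 to 5180 CPM (median 4600) with antibiotics and morphine, and from 4680 to 5230 CPM (median 5060) with water and morphine. The precursor sum ranged from 354 to 423 CPM (median 363) with antibiotics and morphine, and from 384 to 434 CPM (median 398) with water and morphine. No marker of these lists was at 0 in any library. Of the parvalbumin markers 0 of 15 were called and 3 had an unadjusted p under 0.05 (23% of all genes). Their sums ranged from 1530 to 1790 CPM (median 1610) with antibiotics and morphine, and from 1440 to 1690 CPM (median 1550) with water and morphine. Among 9 tested markers of striatal neurons, cells outside the cortex, 2 were higher with antibiotics: Ppp1r1b (log2 fold change 0.49, adjusted p 0.000271) and Pde10a (0.30, 0.00554), both also known from cortical neurons. The striatal sum ranged from 333 to 356 CPM (median 343) with antibiotics and morphine, and from 296 to 323 CPM (median 302) with water and morphine, without overlap. Much of that gap lay in Ppp1r1b (means 67.6 and 48.0 CPM) and Pde10a (77.4 and 63.1 CPM). The striatal dopamine receptors Drd1 and Drd2 were not called and add little, with medians of 8.24 and 0.969 CPM over all libraries. Six3, the marker of that list that was not tested, was at 0 in some libraries of both groups. The other interneuron sum ranged from 1180 to 1310 CPM (median 1220) with antibiotics and morphine, and from 1280 to 1390 CPM (median 1340) with water and morphine, with Cck (-0.21) the 1 called of 10. Neurod6 of excitatory neurons (-0.55) and C1qa of microglia (-0.41) were also lower, each the 1 call of its list. The part of these shifts in the differences of Tnr and Has3 was not tested.

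Of the other matrix genes, in the same 6 lists, several were called in the adolescents given morphine, where 7.56% of all genes were called (3.54% higher and 4.02% lower with antibiotics). Among the receptors and ligands 4 of 28 were lower with antibiotics and none was higher, 14.3% of the list. Ptn, which encodes pleiotrophin, a growth factor that binds the chondroitin sulphate of Ptprz1, had 236 ± 23.6 CPM with antibiotics and 300 ± 21.9 CPM with water (SD, n = 5 each; adjusted p 0.00158), and Nrp1, a semaphorin co-receptor, had 16.9 ± 3.5 CPM with antibiotics and 24.5 ± 1.49 CPM with water. Nptx2 (log2 fold change -0.40) and Cntn4 (-0.32) were the other two. Of 10 genes of hyaluronan turnover 2 were lower: the hyaluronan receptor Cd44 with 2.96 ± 0.724 CPM on antibiotics and 5.77 ± 2.13 CPM on water, and Ugdh, which makes the sugar nucleotide for hyaluronan and chondroitin, with 14.2 ± 1.27 CPM on antibiotics and 17.7 ± 2.18 CPM on water.
Among 21 genes of chondroitin sulphate synthesis 2 were higher and 1 lower. The chain-building enzyme Chpf2 (0.36) and the xylosyltransferase Xylt2 (0.26), which starts the chains, were higher, and Dsel, which encodes an epimerase-like enzyme of dermatan sulphate, was lower (-0.65). Of 24 proteases and inhibitors 3 were lower, Mmp17 (-0.31), Mmp15 (-0.38) and Mmp24 (-0.21), and 1 was higher, Adamts20 (0.55). In 34 other matrix genes Sdc2 was the 1 call (-0.25). Among 4 other link proteins and tenascins edgeR called 0, with 1 at an unadjusted p under 0.05 (23% of all genes). The list medians lay between -0.12 and -0.04, against -0.01 for all genes.

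Averaged over both ages and both injections, Tnr and Has3 were also the 2 of 10 genes called, both lower on antibiotics, where 7.5% of all genes were called (4.23% lower). Unadjusted, 5 of the 10 had a p under 0.05, as had 22.4% of all genes. This average contains the libraries of the comparison above and is not independent of it. Tnr ranged from 220 to 311 CPM with a median of 263 CPM on antibiotics, and from 259 to 375 CPM with a median of 278 CPM on water (20 libraries each), with a log2 fold change of -0.12 ± 0.04 and an adjusted p of 0.0268. Has3 ranged from 13.9 to 22.3 CPM with a median of 18.3 CPM on antibiotics, and from 16.3 to 24.4 CPM with a median of 20.5 CPM on water, with a log2 fold change of -0.14 ± 0.05 and an adjusted p of 0.0483. The ranges overlap widely for both genes. The Has3 call was lost when any of 32 of the 40 libraries was left out (adjusted p up to 0.0993), and that of Tnr in none of these fits. It was also lost with RLE size factors (0.0564), no filter (0.128), the replicate block (0.06) and surrogate variables (0.201), while that of Tnr held in all 7 settings. Beside them 6 of 15 astrocyte markers were lower on antibiotics, with sums from 4100 to 5590 CPM (median 4750) on antibiotics and from 4360 to 6750 CPM (median 4890) on water. The striatal markers Ppp1r1b (0.29, adjusted p 2.22e-05) and Pde10a (0.21, 7.8e-05) were higher, with striatal sums from 289 to 356 CPM (median 322) on antibiotics and from 280 to 323 CPM (median 304) on water. Vip (0.17), Htr3a (0.30), Neurod2 (0.11) and Slc30a3 (0.11) were higher and C1qa (-0.27), Olig1 (-0.23) and Tmem100 (-0.25) lower, and the part of all these markers was not tested.

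Taken group by group, the log2 fold change of Tnr with antibiotics was -0.24 in adolescents with morphine, -0.11 in adolescents with saline, -0.16 in adults with morphine and 0.03 in adults with saline. That of Has3 was -0.30, -0.08, -0.07 and -0.11 in the same order. In the 3 comparisons other than adolescents with morphine edgeR, DESeq2 and limma-voom each called 0 of the 10 genes. The edgeR calls over all genes came to 0.0391% in adolescents with saline, 0.0503% in adults with saline and 0.028% in adults with morphine. Unadjusted p under 0.05 were found for 3 of the 10 genes in adolescents with saline (9.75% of all genes), 0 in adults with saline (10.1%) and 1 in adults with morphine (8.02%). In adults with morphine all 10 estimates were below 0 with TMM scaling, from -0.33 for Acan to nearly 0 for Cspg5, while 9 of 10 were below 0 with RLE size factors. The lowest adjusted p among them was 0.571, for Tnr.

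With morphine, averaged over both ages and both drinks, 1 gene of the set was called, Hapln4, which was higher than with saline. It ranged from 108 to 153 CPM with a median of 130 CPM with morphine, and from 92.6 to 145 CPM with a median of 115 CPM with saline (20 libraries each). Its log2 fold change was 0.14 ± 0.04 with an adjusted p of 0.0221, and 4.35% of all genes were called (2.54% higher). Unadjusted, 2 of the 10 genes and 17.6% of all genes had a p under 0.05. The call was lost with surrogate variables (log2 fold change 0.10, adjusted p 0.136). It was also lost without any 1 of 9 libraries (adjusted p up to 0.0596): in adolescents replicate 5 of the antibiotics-morphine, water-morphine and water-saline groups and replicates 1 and 4 of the antibiotics-saline group, and in adults replicates 2 and 3 of the antibiotics-morphine group, 2 of the water-morphine group and 4 of the antibiotics-saline group. Beside it 3 of 13 excitatory, 2 of 12 mature oligodendrocyte and 2 of 9 striatal markers were higher with morphine, while 2 of 10 other interneuron markers and 1 each of the striatal, endothelial and mural lists were lower. The parvalbumin sum, with 0 of 15 called by edgeR and 3 at an unadjusted p under 0.05, ranged from 1440 to 1790 CPM (median 1630) with morphine and from 1380 to 1820 CPM (median 1530) with saline, and the part of these markers was not tested.

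The largest single difference of Hapln4 was in adults on water. It had 141, 150, 132, 131 and 143 CPM with morphine, and 115, 117, 113, 114 and 115 CPM with saline. The saline libraries were nearly level and all lay below the morphine libraries. That made a log2 fold change of 0.28 ± 0.08, a fold of 1.22, with an adjusted p of 0.0757, which does not pass. With limma-voom the adjusted p was 0.0167, with only the compared groups 0.0277 and with no filter 0.0131. In this comparison edgeR called 0 of the 10 genes and 0.475% of all genes. At an unadjusted p under 0.05 there were 2 of the 10 and 11.1% of all genes. DESeq2 called 0 of the 10 and limma-voom 1. Hapln4 and Acan were the 2 genes of 10 whose libraries did not overlap, where 2.51% of all genes had no overlap. Acan had 2.68, 4.18, 2.65, 3.06 and 3.82 CPM with morphine and 2.62, 2.62, 2.42, 2.63 and 2.38 CPM with saline, a gap far smaller than the spread with morphine, and an adjusted p of 0.496.

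In the same libraries the sum of the 15 parvalbumin markers ranged from 1620 to 1720 CPM (median 1660) with morphine and from 1380 to 1530 CPM (median 1460) with saline. These sums did not overlap, as was so for 2.51% of all genes. Of the 15 markers edgeR called 0, with 5 at an unadjusted p under 0.05 (11.1% of all genes). Pvalb itself, with a median of 22.5 CPM over all libraries, is a small part of this sum. The sum of the mature oligodendrocyte markers ranged from 1190 to 1620 CPM (median 1510) with morphine and from 1020 to 1130 CPM (median 1060) with saline. Of these 12 markers 0 were called and 11 had an unadjusted p under 0.05 (11.1% of all genes). No marker of either list was at 0 in any library. The sums of the other marker lists overlapped between the groups, such as that of other interneurons (1190 to 1350 CPM with morphine, 1240 to 1320 CPM with saline). The part of the marker shifts in the difference of Hapln4 was not tested.

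In the other morphine comparisons Hapln4 had smaller estimates. In adults on antibiotics Hapln4 had a log2 fold change of 0.15, in adolescents on water 0.06 and in adolescents on antibiotics 0.06. In these 3 comparisons edgeR, DESeq2 and limma-voom called 0 of the 10 genes. Of all genes edgeR called 0.213% in adults on antibiotics, 0.319% in adolescents on water and 2.92% in adolescents on antibiotics. Unadjusted p under 0.05 were found for 0 of the 10 genes in adults on antibiotics (7.04% of all genes), 1 in adolescents on water (13.4%) and 2 in adolescents on antibiotics (16.3%). The 2 genes in adolescents on antibiotics were Vcan (0.29, adjusted p 0.17) and Cspg5 (-0.13, adjusted p 0.189). Cspg5 had no overlap there, with 351, 329, 356, 345 and 330 CPM with morphine and 380, 377, 375, 372 and 366 CPM with saline, 1 gene of 10 where 4.09% of all genes had none. The highest library with morphine lay below the lowest with saline.

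**Figure D5:**
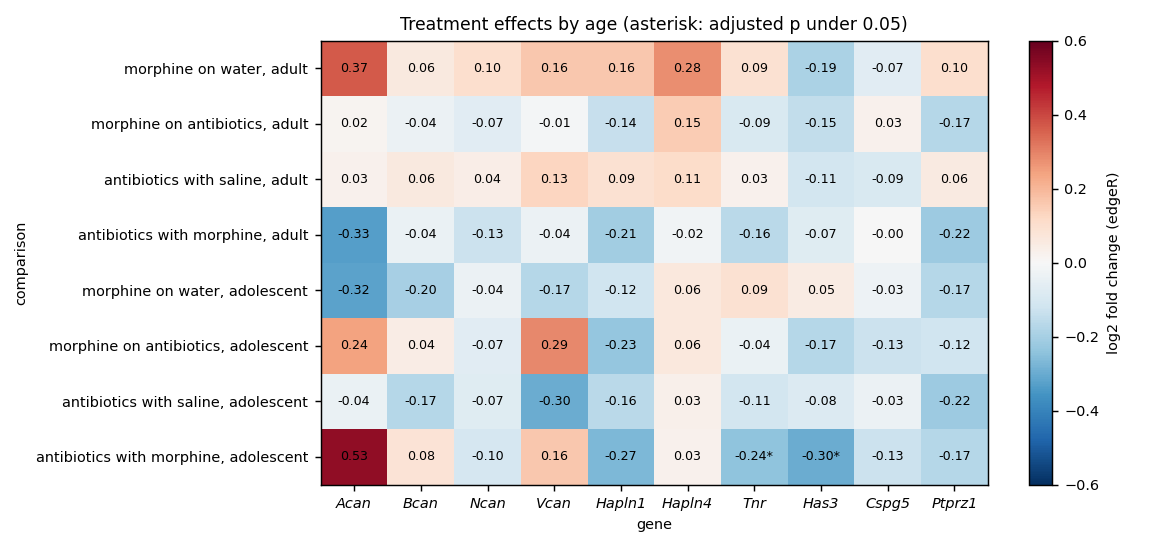
log2 fold changes of the 10 genes (columns) in the 8 treatment comparisons (rows, adults above adolescents), red for higher and blue for lower with morphine or antibiotics. The asterisks mark the 2 called values, Tnr at -0.24 and Has3 at -0.30, and Acan shows the widest swings, from 0.53 to -0.33.

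Whether morphine acts differently on antibiotics than on water was tested as an interaction at each age. In adolescents edgeR called 0 of the 10 genes, with 2 at an unadjusted p under 0.05 (16.9% of all genes), and in adults 0 with 0 at that level (6.79% of all genes), while DESeq2 and limma-voom called 0 at both ages. The share of all genes called was 1.24% in adolescents and 0% in adults. The largest of these estimates was that of Acan in adolescents (0.57), from few counts, and it was not called. Among genes with more than 100 counts the largest was that of Vcan in adolescents (0.46 ± 0.16, adjusted p 0.128). Vcan with saline had 17.3, 16.6, 21.4, 23.8 and 18.9 CPM on antibiotics and 21.5, 21, 20.8, 27.2 and 30.0 CPM on water, while with morphine it had 21.3, 31.3, 22.9, 24.5 and 20.2 CPM on antibiotics and 22.0, 22.9, 20, 22.4 and 20.2 CPM on water. The groups overlap in both pairs, and the highest library of all was on antibiotics and morphine.

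Whether a treatment difference depends on age was tested as the adult minus the adolescent difference. For antibiotics with morphine, antibiotics with saline, morphine on water and morphine on antibiotics edgeR called 0 of the 10 genes each, and so did DESeq2 and limma-voom. In that order 1, 1, 3 and 1 of the 10 genes had an unadjusted p under 0.05, as had 5.65%, 10.1%, 10% and 6.44% of all genes. Of all genes 0.00559%, 0.0224%, 0% and 0% were called. The widest gap was in Acan, where antibiotics with morphine gave a log2 fold change of -0.33 in adults and 0.53 in adolescents. The difference was -0.86, with a 95% interval from -1.44 to -0.28, an unadjusted p of 0.00401 and an adjusted p of 0.794. For Tnr and Has3 the same differences were 0.09 (-0.12 to 0.29) and 0.23 (-0.04 to 0.50), with 95% intervals in parentheses. For Hapln4 with morphine on water it was 0.22, with an unadjusted p of 0.048 and an adjusted p of 0.497. None of these differences passed the adjustment.

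Within groups, the matrix genes also varied from library to library. After removal of the group means, Bcan and Ptprz1 rose and fell together over the 40 libraries (Pearson r = 0.78, Spearman rho = 0.69). So did Vcan with Ptprz1 (0.64 and 0.58), Ncan with Ptprz1 (0.60 and 0.60), Hapln1 with Ptprz1 (0.58 and 0.65) and Bcan with Cspg5 (0.56 and 0.59). Hapln4 ran against Ptprz1 (-0.47 and -0.40) and against Vcan (-0.46 and -0.48). For Hapln1 with Hapln4 the values were 0.01 and -0.13. Without the 2 libraries farthest from the median of the first gene r was 0.68 for Bcan with Ptprz1, 0.64 for Vcan with Ptprz1 and 0.57 for Ncan with Ptprz1. It was 0.61 for Hapln1 with Ptprz1, 0.48 for Bcan with Cspg5, -0.44 for Vcan with Hapln4 and -0.28 for Hapln4 with Ptprz1. These values describe 40 libraries that share depth, scaling and the make-up of the dissected tissue.

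The genes outside the set most like each member, by Pearson r of log2 CPM over the 40 libraries, differed between members. They were picked as the highest of 16341 tested genes that averaged 1 CPM or more, so high values of r follow from that choice. Group means were not removed here. Ptprz1 was closest to Slc4a4, Luzp2 and Slc1a3 (r = 0.92, 0.88 and 0.87), of which Slc4a4 and Slc1a3 are astrocyte transporters. Bcan was closest to Apoe, Ttyh1 and Gpam (0.81, 0.80 and 0.80), with Apoe, the main lipid carrier of astrocytes, first. Vcan was closest to Cd33, Pdgfra and Pitpnm1 (0.66, 0.63 and 0.62). Of these only Pdgfra, the receptor that defines oligodendrocyte precursors, is in a marker list used here, and it was not the first.
Hapln4 was closest to Scn4b, Tbc1d30 and Snap25 (0.91, 0.88 and 0.87), with Scn4b a sodium channel subunit and Snap25 a protein of synaptic vesicle fusion. Tnr was closest to Fmn2, Ank2 and Tln2 (0.85, 0.85 and 0.84), Ncan to Apc and Dlg2, among others (0.83 and 0.78), Hapln1 to Gpm6b, Phactr3 and Gm2a (0.80, 0.79 and 0.79), and Cspg5 to Shisa4, Ppp1r16a and Ppp1r1a (0.78 each). Has3 was closest to Mmd, Cfdp1 and Ccnd1 (0.74, 0.71 and 0.68), and Acan to Gm47898, Cerk and Ctnnal1 (0.58, 0.56 and 0.56). Without the 2 libraries farthest from the median of the member, r with the first gene was 0.89 for Hapln4, 0.88 for Ptprz1, 0.73 for Bcan, 0.51 for Vcan and 0.47 for Acan, and r of Vcan with Pitpnm1 was 0.37.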

How the data were processed

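Raw read counts per gene, not normalized, were deposited by the authors as 1 table of 56980 genes for 40 libraries, and per the submitters' processing notes STAR 2.7.10a, DESeq2 and the mouse build mm10 were used, with no role given for DESeq2. The sources used here do not give the annotation or the strand setting of the counts, so genes that overlap on opposite strands are uncertain. Identifiers were matched to symbols without their version (52073 matches, 91.4%). The 1 column name that differed from its library name in 1 detail, of the adults on antibiotics and morphine (replicate 3), was matched through its title.

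The analysis used edgeR 4.0.16 in R 4.3.3. The filter filterByExpr (minimum count 10, minimum total 15) left 17880 genes. TMM gave the scaling of the libraries. A robust quasi-likelihood model with a coefficient for each group was fitted to all 40 libraries, with a biological coefficient of variation of 9.14%. The 21 comparisons were contrasts tested two-sided by the F test, with Benjamini-Hochberg adjustment over all tested genes, and a gene is called below 0.05. Every adjusted p given without a tool comes from this model. The SE is the size of the log2 fold change over the square root of F. Comparisons within an age share libraries and are not independent. The pipeline was tested on simulated counts.

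Levels per kb use the summed exon length of a GENCODE annotation, which is not the annotation of the counts. Replicate libraries differed by more than sampling noise, and none was treated as a duplicate. Alternatives were RLE size factors, no filter, a floor of 1 CPM reached in 5 libraries, limma-voom (limma 3.58.1) with quality weights, DESeq2 1.42.0, a replicate block within each age, a fit restricted to the groups compared, 3 surrogate variables (sva 3.50.0), and each library left out in turn. The rule for named genes took the 10 genes whatever their values, up to 4 called genes with the smallest p from each of 6 pathway lists for age and for the treatment comparison with most calls, and the 3 most like genes of each member, of which 1 is not reported here. The 10 genes, the lists and the tests were chosen with earlier results of these data known.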

Additional observations from a re-analysis of the deposited data

Results flagged for a closer look

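Of 80 sets of 5 libraries (10 genes in 8 groups), 5 held a library that stood apart by Dixon's gap test at its 95% level, where chance gives about 1 in 20, or 4 sets. Replicate 3 of the adults on water and morphine was the high library for both Ncan (404 CPM) and Tnr (375 CPM). In the adolescents on water and morphine, Hapln4 was high in replicate 5 (130 CPM) and Cspg5 in replicate 4 (406 CPM). Ptprz1 was high in replicate 1 of the adults on antibiotics and morphine (232 CPM).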

How the results depend on the processing

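The results followed were 37: 21 counts of called matrix genes, which have no direction, and 16 fold changes. A fold change was followed only where its gene was called in the main fit or in another fit, so weak estimates were left out. None of these 16 changed direction, which that choice made likely beforehand. The settings run were 8, or 7 for comparisons over all groups, where a fit with only the compared groups would be the same fit. Each library of the groups compared was also left out in turn (10, 20 or 40). With age over all treatments the count was 3 with surrogate variables, against 5, and 4 to 5 without single libraries. For age with water and saline it was 2 with no filter, 1 with DESeq2 and 1 with surrogate variables, against 0, and 0 to 1 without single libraries; with antibiotics and saline it was 1 with DESeq2 and with limma-voom, against 0; with water and morphine it was 1 with no filter and with limma-voom, against 0. For antibiotics in adolescents given morphine it was 1 with no filter, with only the compared groups and with surrogate variables, against 2. None of the 10 fits without single libraries kept the count of 2. It was 0 without replicate 2 of either group or replicate 4 on antibiotics, 3 without replicate 5 on antibiotics, and 1 without any of the others. For antibiotics over all groups it was 1 with RLE size factors, no filter, the replicate block and surrogate variables, against 2, and 1 to 2 without single libraries. For morphine over all groups it was 0 with surrogate variables, against 1, and 0 to 1 without single libraries, and for morphine on water in adults it was 1 with no filter, limma-voom and only the compared groups, against 0. The cause of these changes was not tested. The counts over all genes moved by more than 1.5 times for antibiotics in adolescents given morphine (1351 genes, 2595 with limma-voom, 326 with surrogate variables) and for age (3192 genes, 2076 with surrogate variables).

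Nothing in the labels says what a shared replicate number stands for. Each library was correlated with those of the other groups of its age, after removal of group means, and the correlations were averaged by number. For 13 of 40 libraries their own number, of 5, had the highest average. Of 60 same-number pairs 6 had r over 0.1 (from -0.16 to 0.20, median 0.01). These values do not settle whether a number pairs libraries. With that number as a replicate block within age, the count of called matrix genes was 4, against 5, for age over all treatments, where Bcan was lost (adjusted p 0.0644), and 1, against 2, for antibiotics over all groups, where Has3 was lost (0.06). Depth limits Acan most, with 15 to 45 counts a library.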
